A study of Mus musculus with 6 samples.

Results

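The genes described here are 36 genes of red blood cell formation: the adult globins and their chaperone, the enzymes and carriers of heme synthesis, red cell membrane and surface proteins, and the regulators and receptors of the lineage. They were taken as a named list and looked up by symbol in the GENCODE M21 annotation. Of the 36, 35 were matched among 35527 quantified genes, and all 35 had at least 10 reads in at least 3 libraries and were tested. Ahsp, which encodes the chaperone of free alpha globin, was not matched and is not analysed here. The tissue was whole pancreas of C57BL/6 mice at postnatal day 1. There were 2 groups, wild type (WT) and miR216a-/- (labelled KO), with 3 libraries each, and the labels name a separate donor mouse for each. The labels do not say whether the null allele acts in the whole body, and they give neither sex nor litter. None of the genes of the targeted locus was among those quantified (0 genes), so the genotype rests on the labels.

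Red blood cells arise from progenitors that divide while they switch on the erythroid program under Gata1, Tal1 and Klf1, fill with hemoglobin, stop dividing and lose their nucleus. The young red cell, the reticulocyte, enters the blood with messenger RNA for globins but no further transcription. Heme, which each globin chain carries, is made from glycine and succinyl-CoA in steps that begin and end in the mitochondrion. Alas2 catalyses the erythroid form of the first step, whereas most of the later enzymes also serve other cell types. In newborn mice the liver and spleen make red cells, and the pancreas, which lies beside the spleen, receives circulating ones with its blood.

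Upstream sequences of 5 members are shown because they carry the short motifs that the lineage's regulators are known to bind. They come from the RefSeq promoter table (GRCm38.p6), read 5′ to 3′ on the strand of the gene. Capitals mark AGATAA or TGATAA on either strand (the GATA motif), CACCC on either strand (bound by Klf1 and its relatives), CCAAT on either strand, and ATATAA on the gene's strand. Stretches end before the first base of any annotated GENCODE exon, except the beta globins, for which 30 bases around the CACCC and CCAAT letters are given.
Hba-a2, chr11:32296242-32296488, plus strand: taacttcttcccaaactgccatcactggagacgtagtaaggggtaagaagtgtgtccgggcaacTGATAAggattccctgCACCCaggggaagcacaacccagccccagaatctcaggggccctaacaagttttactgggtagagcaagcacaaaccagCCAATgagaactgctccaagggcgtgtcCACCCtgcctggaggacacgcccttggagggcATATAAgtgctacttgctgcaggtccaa
Hbb-bs, chr7:103827994-103828023, minus strand: agccaCACCCtggtaagggCCAATctgctc
Hbb-bt, chr7:103813988-103814017, minus strand: ggtaaCACCCtggcATTGGCCAATctgctc
Alas2, chrX:150547167-150547374, plus strand: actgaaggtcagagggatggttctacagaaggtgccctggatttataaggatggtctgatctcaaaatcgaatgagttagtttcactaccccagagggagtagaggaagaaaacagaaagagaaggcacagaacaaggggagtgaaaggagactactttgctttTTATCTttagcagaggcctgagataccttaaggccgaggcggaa
Klf1, chr8:84901732-84901927, plus strand: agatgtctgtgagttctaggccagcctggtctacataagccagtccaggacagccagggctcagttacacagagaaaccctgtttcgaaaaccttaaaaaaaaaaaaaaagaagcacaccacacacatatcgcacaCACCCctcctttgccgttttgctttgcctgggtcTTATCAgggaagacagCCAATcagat
In Hba-a2 the GATA motif starts 186 bases before the RefSeq start, CCAAT 91 and ATATAA 31 bases before it. The upstream bases of Hba-a1 were identical to those of Hba-a2 at 247 of 247 positions compared, with a shift of 3 bases. In Klf1 the CACCC, GATA and CCAAT letters start 114, 80 and 64 bases before the start. The GATA motif of Alas2 starts 86 bases before it. The 3 CACCC matches of Alas2, 40, 35 and 30 bases before the start, lie outside the printed stretch. The GATA motif of Hbb-bs, 210 bases before its start, is not printed either. The printed Hbb-bs bases lie inside the GENCODE span of that gene.

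The table held 250 bases before the start for 30 of the members. Some of these genes have more than 1 start, which gave 36 promoters. The GATA motif stood in 17 of the 36, against 16.6% of 32851 promoters of the same length. CACCC stood in 23 of 36 (52.01% of all promoters) and CCAAT in 19 (33.85%). ATATAA stood in 4, those of the 4 adult globins, against 5.57% of all promoters. Matches may adjoin each other, as ATTGG and CCAAT do in Hbb-bt. These matches describe letters only.

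Depth was even, at 20565387 to 23028718 estimated reads per library. Levels are given as CPM, estimated reads scaled to a common library size with TMM normalization, and, where genes are compared with each other, as TPM, which also divides by transcript length. Acinar genes marked all 6 libraries as pancreas: 10 of them summed to between 191360 and 294230 CPM, led by Ctrb1 and Amy2a5. Of 15886 genes tested with edgeR's quasi-likelihood test, 0 had a Benjamini-Hochberg adjusted p under 0.05 (smallest 0.207). At an unadjusted p under 0.05, 1107 genes were lower in KO and 893 higher. DESeq2's Wald test called 417 genes and limma-voom 2.

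No difference of an erythroid gene between the groups passed the test, and the libraries of each group were spread widely. With 0 of 35 called at the edgeR threshold (0% of all genes were), 0 of 35 also had an unadjusted p under 0.05, where the background was 6.97% lower and 5.62% higher. DESeq2 and limma-voom likewise called 0 members, where they called 2.62% and 0.0126% of all genes. DESeq2 gave no p-value for Slc4a1, so it could not call that gene. The fitted log2 fold change, KO minus WT, was below 0 for 19 members and above 0 for 16. Its median was -0.02 over the members and 0.01 over all genes, and it ran from -0.68 (Icam4) to 0.70 (Trim58). With limma-voom 31 members were below 0, with a median of -0.53. Adjusted p-values of the members ran from 0.419 (Alad) to 0.995 (Fech) in edgeR's test. In bulk tissue, fewer erythroid cells and less RNA in each of them cannot be told apart.

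Within each group these genes varied widely from library to library. The standard error of the log2 fold change had a median of 0.56 over the members and 0.16 over all genes tested. Library KO 2 was the highest of the 6 for 26 of 35 members, against 18.1% of all genes. WT 1 was highest for 7 members (12.7% of all genes), namely the 4 globins, Alas2, Icam4 and Bpgm. WT 1 and KO 2 were the 2 highest libraries for 26 of 35 members, against 6.96% of all genes. KO 1 and KO 3 were the 2 lowest for 30 of 35, against 7.78%. The exceptions to the last count were Tfrc, Epb41, Uros, Slc25a38 and Ppox. Relative to the WT mean, the median member stood at log2 0.23 in WT 1, -0.05 in WT 2 and -0.43 in WT 3. It stood at -1.23 in KO 1, 0.87 in KO 2 and -1.17 in KO 3. The KO group therefore held the highest library and the 2 lowest ones.

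**Figure D1:**
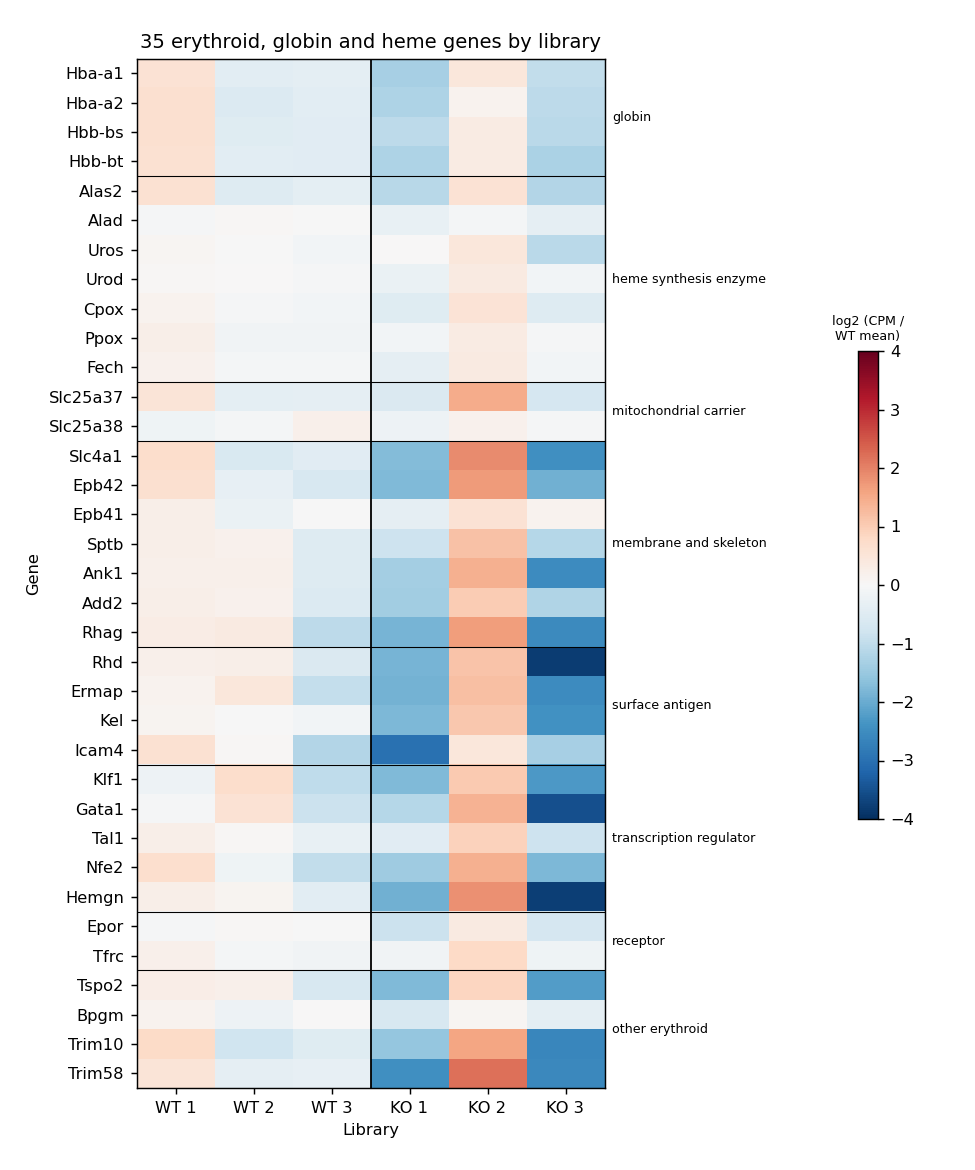
Heat map of the 35 members (rows, ordered by role) in the 6 libraries (columns). Colour gives log2 of the CPM over the mean of the 3 WT libraries, red above and blue below. KO 2 is red for nearly every member, while KO 1 and KO 3 are blue, with medians of 0.87, -1.23 and -1.17.

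The globins come first among the members by level. Hba-a1 and Hba-a2 encode the adult alpha chain, and Hbb-bs and Hbb-bt the adult beta chain, of hemoglobin. Together they took 0.505 to 1.64% of all TPM in a library, and Hba-a2 had the highest mean, 4103 TPM. Hba-a1 (chromosome 11, 32283511 to 32284465) and Hba-a2 (32296489 to 32297298) are near-identical copies on the plus strand. Their coding transcripts matched at 537 of 538 aligned bases (99.8%), so the division of reads between them by the authors' quantifier is uncertain. Hbb-bs (chromosome 7, 103826534 to 103828096) and Hbb-bt (103812524 to 103813996) lie on the minus strand and matched at 586 of 625 bases (93.8%).

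Summed over the 4 genes, globin stood at 5763 CPM in WT 1, 2624 in WT 2 and 2754 in WT 3. In the KO libraries the sum was 1662 CPM in KO 1, 4498 in KO 2 and 1760 in KO 3. WT 1 and KO 2 were high and the other 4 libraries low, so the groups overlapped. The group means were 3714 ± 1776 CPM in WT and 2640 ± 1610 in KO (SD, n = 3), a ratio of 0.711.

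Each globin followed the same order at its top, with WT 1 first and KO 2 next. Hba-a2 had 2442, 1059 and 1156 CPM in the WT libraries, numbers 1 to 3, and 663, 1726 and 747 in the KO libraries. Hbb-bs had 2218, 1016 and 1055 CPM in WT and 697, 1807 and 674 in KO. In both genes KO 1 and KO 3 lay below every WT library and KO 2 above WT 2 and WT 3. Hba-a1 had 593, 300.5 and 302 CPM in WT and 160, 543 and 200 in KO. Hbb-bt had 510, 248 and 242 CPM in WT and 142, 422 and 140 in KO. These 2 genes showed the same overlap. The fitted log2 fold changes were -0.57 ± 0.43 for Hba-a2 (SE, adjusted p = 0.641, edgeR) and -0.40 ± 0.47 for Hba-a1 (adjusted p = 0.772). They were -0.43 ± 0.44 for Hbb-bs (adjusted p = 0.742) and -0.51 ± 0.47 for Hbb-bt (adjusted p = 0.709). The size of the globin difference rested on single libraries. Without WT 1, the log2 fold changes of Hba-a1 and Hbb-bs were 0.0027 and 0.036. Without KO 2 those of the 4 genes were -1.15 for Hba-a1, -1.14 for Hba-a2, -1.06 for Hbb-bs and -1.25 for Hbb-bt, with adjusted p-values from 0.321 to 0.349 (edgeR). The log2 ratio of summed globin, KO minus WT, was -0.49 with all libraries, -1.12 without KO 2 and -0.02 without WT 1.

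The balance of chains moved far less than their amount. Alpha over beta globin, in TPM, lay between 1.16 (KO 1) and 1.34 (KO 3). Hba-a2 over Hba-a1 lay between 4.40 and 5.82 in TPM, and Hbb-bs over Hbb-bt between 4.80 and 5.81. The highest and the lowest library differed 3.29-fold to 3.71-fold in the CPM of a globin gene.

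Embryonic globins were near 0 in every library. Hbb-y, made by primitive red cells of the embryo, had 2, 1 and 0 reads in WT (1 to 3) against 0 in every KO library. Hbb-bh1, an embryonic and early fetal beta-like globin, had 1, 2 and 7 reads in WT and 9, 1 and 0 in KO. Of the 6 genes on this list, 5 had 0 reads in some library and 0 passed the filter on reads. The 2 highest by TPM were Hbq1b, a theta globin with 4 to 27 reads, and Hbb-bh1.

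Of the 7 heme synthesis enzymes on the list, 0 were called, 5 had a fold change below 0 and 2 above it. Alas2 (chromosome X, 150547375 to 150570638), the erythroid enzyme of the first step, had 85.9, 38.9 and 42.6 CPM in WT (1 to 3). In KO 1 to 3 it had 26.1, 82.8 and 24.8 CPM. WT 1 and KO 2 were nearly level with each other and high, KO 1 and KO 3 were lowest, and the groups overlapped. Its fold change was -0.33 ± 0.50 on the log2 scale (SE, adjusted p = 0.834, edgeR). It was 0.13 without WT 1 and -1.14 without KO 2 (adjusted p = 0.327, edgeR).

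Alad, which joins 2 molecules of aminolevulinate in the next step, was the only member whose groups did not overlap. Its level was 26.4, 28.0 and 27.1 CPM in WT and 22.2, 25.8 and 21.2 CPM in KO. All 3 KO values were under the lowest WT value, KO 2 by a narrow margin from WT 1. This was 1 of 35 members lower without overlap, and 0 were higher, against 10.3% and 9.05% of all genes. The log2 fold change was -0.24 ± 0.11 (SE, unadjusted p = 0.0574, adjusted p = 0.419, edgeR). Alad also had the smallest standard error of the members.

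The other enzymes differed less between libraries than Alas2. Across the 6 libraries Urod, uroporphyrinogen decarboxylase, lay between 27.0 and 41.2 CPM. Cpox, coproporphyrinogen oxidase, lay between 27.1 and 56.8 CPM, and Ppox, protoporphyrinogen oxidase, between 28.5 and 39.3. Each of these was highest in KO 2. Fech, ferrochelatase, which inserts iron into the ring, lay between 51.2 CPM in KO 1 and 84.5 in KO 2. Uros, uroporphyrinogen synthase, fell in between the 2 patterns, with 3.55 CPM in KO 3 and 10.1 in KO 2.

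Of the mitochondrial carriers, Slc25a37 (mitoferrin) brings iron to the heme pathway and Slc25a38 carries glycine for the first step. Slc25a37 had 58.6, 31.1 and 32.0 CPM in WT and 27.1, 114.6 and 25.7 in KO. Slc25a38 lay between 8.81 and 11.6 CPM, with its highest value in WT 3. The carriers thus differed in spread, 4.46-fold between the extreme libraries for Slc25a37 and 1.32-fold for Slc25a38.

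Among the 7 membrane and skeleton genes 0 were called, and all 7 were highest in KO 2. Slc4a1 (chromosome 11, 102348824 to 102366203) encodes band 3, the anion exchanger to which the skeleton is anchored. It had 78.9, 31.5 and 35.3 CPM in WT (1 to 3) against 14.7, 179.5 and 8.81 in KO (1 to 3). KO 2 stood 20.4-fold above KO 3, and the 3 WT libraries lay inside that range. Its log2 fold change was 0.48 ± 0.99 (SE, adjusted p = 0.891, edgeR), and without KO 2 it was -2.05 (adjusted p = 0.294). With limma-voom on all libraries it was -0.69.

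Epb42, protein 4.2, which binds band 3, had 7.34, 3.69 and 2.99 CPM in WT and 1.37, 15.2 and 1.24 in KO. Ank1, the ankyrin that links band 3 to spectrin, had 12.4, 12.5 and 7.501 CPM in WT and 4.24, 28.8 and 1.88 in KO. Sptb, the erythroid beta spectrin, lay between 8.30 CPM in KO 3 and 41.0 in KO 2. KO 2 was again the highest library and KO 1 and KO 3 the lowest for these 3 genes. Add2, an adducin at the ends of the skeleton's actin filaments, lay between 2.21 and 11.6 CPM. Rhag, a channel of the Rh complex, lay between 0.556 and 10.5 CPM. Epb41, protein 4.1, which other tissues also make, had the narrowest range of the 7, 70.5 to 135.0 CPM.

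The 4 surface antigen genes had fold changes below 0, and 0 of 4 were called. They were Rhd (the Rh blood group), Ermap (an erythroid membrane protein), Kel (the Kell antigen) and Icam4. Rhd had 5.50, 5.53 and 3.18 CPM in WT and 1.32, 10.4 and 0.342 in KO. Ermap had 10.6, 13.0 and 4.94 CPM in WT and 2.54, 22.05 and 1.67 in KO. In both, WT 2 reached or passed WT 1, unlike the globins. Kel lay between 1.24 and 14.1 CPM, with the extremes in KO 3 and KO 2. Icam4, an adhesion molecule of red cells and erythroblasts, had only 2 reads in KO 1 and 24 in WT 1, and its log2 fold change of -0.68 ± 0.75 was the lowest of the members.

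Per length the 5 transcription regulators had mean levels of 1.04 to 3.06 TPM, and 0 of 5 were called. Klf1 (chromosome 8, 84901928 to 84905291), the activator of the adult beta globin gene, had 1.66, 3.13 and 0.949 CPM in WT (1 to 3). In KO 1 to 3 it had 0.565, 3.96 and 0.385 CPM. KO 2 was highest and WT 2 next, while WT 1, the library with the most globin, came after both. The reads behind these values were 35, 78 and 20 in WT and 12, 78 and 9 in KO, and the exact 95% interval for the 9 reads of KO 3 runs from 4.12 to 17.1. The log2 fold change was -0.25 ± 0.83 (SE, adjusted p = 0.938, edgeR), and -0.90 with limma-voom. It was -2.01 without KO 2 (adjusted p = 0.322, edgeR) and above 0 without WT 2 (0.31), without KO 1 (0.16) and without KO 3 (0.22).

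Gata1 (chromosome X, 7959260 to 7978071), the lineage's GATA factor, had 1.42, 2.16 and 0.807 CPM in WT and 0.659, 3.81 and 0.128 in KO. The order was that of Klf1, with KO 2 first, WT 2 next and KO 3 last on 3 reads (exact 95% interval 0.619 to 8.77 reads). Its log2 fold change was 0.04 ± 0.92 (SE, adjusted p = 0.991, edgeR), and it was -1.92 without KO 2, -0.24 without WT 3 and -1.01 with limma-voom. Hemgn, an erythroid nuclear protein, had the widest range of the members, from 7 reads (0.299 CPM) in KO 3 to 285 (14.5 CPM) in KO 2. Nfe2, a subunit of the factor that binds the globin control region, lay between 0.941 and 8.79 CPM. Tal1, which partners Gata1 and is also made in endothelium, varied least of the 5, between 4.10 and 13.7 CPM. All 5 regulators were highest in KO 2.

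**Figure D2:**
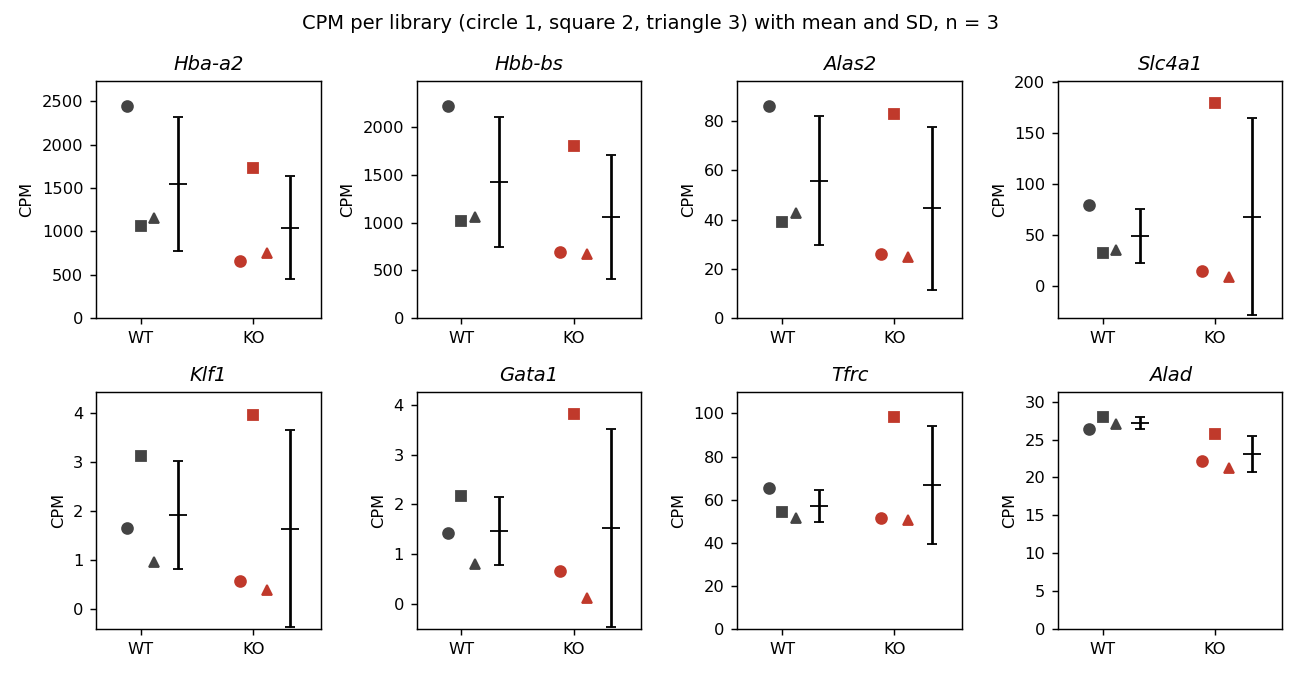
CPM of 8 members in the 6 libraries (y axes linear; circle, square and triangle for libraries 1, 2 and 3 of each group, with the mean and SD, n = 3). For Hba-a2, Hbb-bs and Alas2 the WT circle is highest, for Slc4a1, Klf1, Gata1 and Tfrc the KO square, and only Alad shows no overlap between groups.

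The 2 receptors on the list serve growth and iron uptake. Epor, the erythropoietin receptor, had 3.46, 3.69 and 3.47 CPM in WT and 1.93, 4.57 and 2.22 in KO. KO 1 and KO 3 lay below the WT libraries and KO 2 above them. Its log2 fold change was -0.29 ± 0.34 (SE, adjusted p = 0.773, edgeR), and -0.77 without KO 2 (adjusted p = 0.344). Tfrc, the transferrin receptor, which dividing cells of many tissues make, had 65.2, 54.4 and 51.4 CPM in WT and 51.4, 98.3 and 50.4 in KO. KO 1 and KO 3 were level with WT 3, and KO 2 stood above all. The log2 fold change was 0.23 ± 0.25 (SE, adjusted p = 0.765, edgeR), and it was -0.17 without KO 2.

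The last 4 members act late in red cell formation. Bpgm, which makes the bisphosphoglycerate that lowers the oxygen affinity of hemoglobin, had 55.9, 43.9 and 51.2 CPM in WT and 32.3, 53.1 and 38.6 in KO. KO 1 and KO 3 were the lowest libraries, and KO 2 lay within the WT range. Its log2 fold change was -0.29 ± 0.18 (SE, adjusted p = 0.575, edgeR), and -0.51 without KO 2 (adjusted p = 0.322). Trim10 and Trim58 are erythroid members of the TRIM family, and Trim58 takes part in the loss of the nucleus. Trim10 had 7.96, 2.69 and 3.37 CPM in WT and 1.602, 13.9 and 0.770 in KO. Trim58 had 3 reads in both KO 1 and KO 3 and 70 in KO 2, and its log2 fold change of 0.70 ± 1.08 was the highest of the members. Tspo2, an erythroid relative of the mitochondrial translocator protein, lay between 0.513 and 4.42 CPM.

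**Figure D3:**
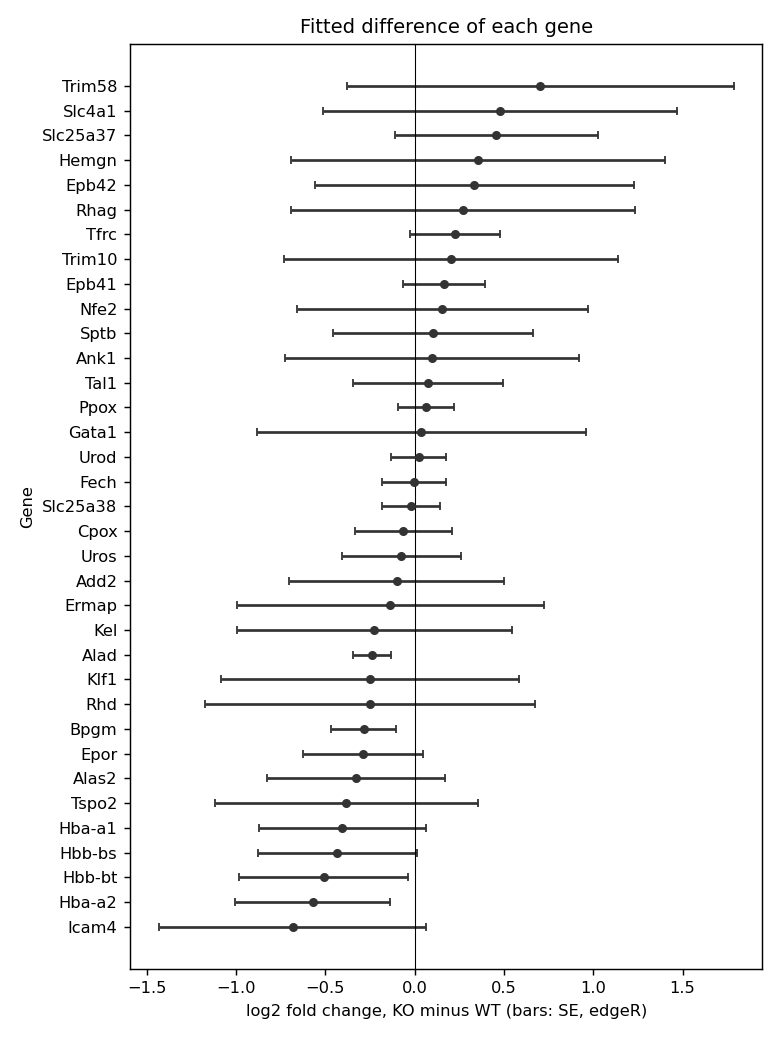
Log2 fold change of each member, KO minus WT, with a standard error derived from edgeR's F statistic over 6 libraries (x axis), sorted by size. The estimates run from -0.68 to 0.70 on both sides of 0, and the bars are short for genes such as Alad (0.11) and long for Trim58 (1.08).

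Since globin messenger RNA persists in reticulocytes, each of the 31 other members was also set against the summed globin of its own library, as CPM per 1000 globin CPM. Alas2 kept the steadiest ratio, with 14.9, 14.8 and 15.5 in WT (1 to 3) against 15.7, 18.4 and 14.1 in KO (1 to 3). Its highest ratio was 1.31-fold its lowest, although its CPM differed 3.47-fold. Slc4a1 had a steady ratio in WT, 13.7, 12.003 and 12.8, but 8.84, 39.9 and 5.003 in KO. KO 2 therefore held more Slc4a1 per globin than any other library.

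Klf1 per 1000 globin CPM was 0.288, 1.19 and 0.345 in WT and 0.340, 0.881 and 0.219 in KO. Gata1 gave 0.247, 0.825 and 0.293 in WT and 0.397, 0.847 and 0.0729 in KO. For both regulators WT 2 and KO 2 stood above the other 4 libraries, and WT 1 was not among the high ones. Of the 31 ratios, 15 were highest in KO 2, 6 in KO 1, 5 in KO 3, 5 in WT 2 and 0 in WT 1. Those highest in WT 2 were Ermap, Icam4, Klf1, Epor and Tspo2. Those highest in KO 1 or KO 3, where globin was lowest, included 6 of the 7 heme enzymes, all but Alas2, and Tfrc, Epb41 and Slc25a38. The lowest ratio was in WT 1, where globin was highest, for 15 members and in KO 3 for 15. Dividing by globin alone puts a gene with nearly level CPM, such as Slc25a38, lowest in WT 1 and highest in KO 1 or KO 3.

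**Figure D4:**
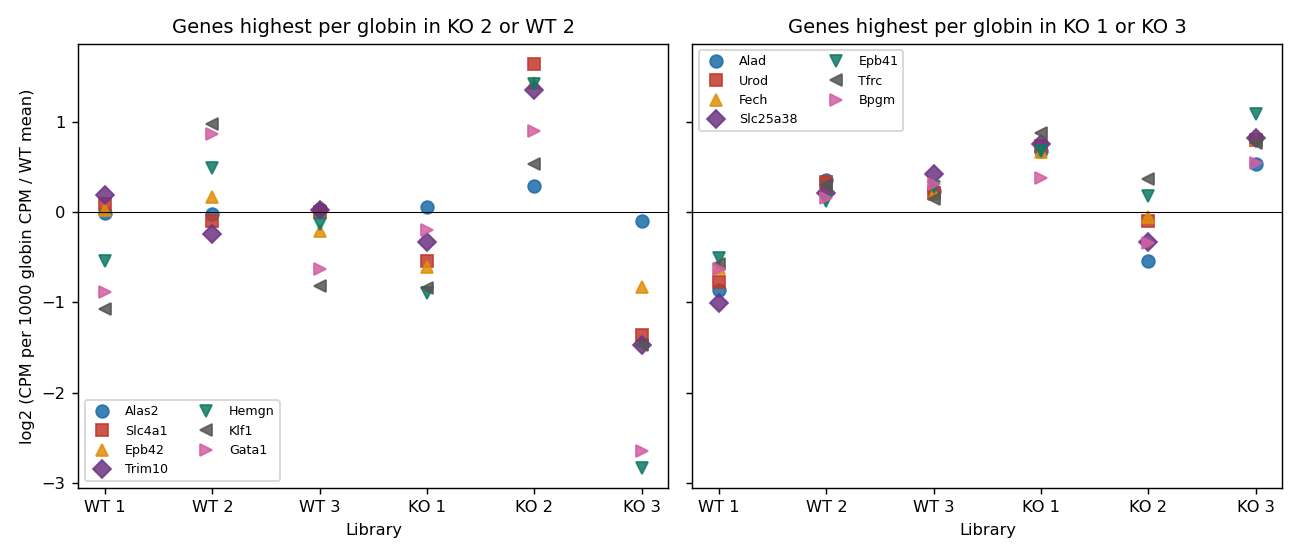
CPM per 1000 globin CPM of 14 members by library, as log2 over the mean of the WT libraries (y axis). On the left Alas2 stays near 0 while Slc4a1 peaks in KO 2 and Klf1 in WT 2 (0.288 in WT 1 against 1.19), and on the right genes such as Alad and Fech are lowest in WT 1.

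WT 1 and WT 2 share a genotype but differed in which erythroid genes were high. By read counts, with exact 95% intervals that cover counting error only, 16 members were higher in WT 1, 2 were higher in WT 2 and for 17 the interval held 1. The ratio of WT 1 to WT 2 was 2.31 for Hba-a2 (interval 2.27 to 2.34), 2.21 for Alas2 (2.04 to 2.39) and 2.504 for Slc4a1 (2.30 to 2.73). It was 0.530 for Klf1 (0.345 to 0.800) and 0.815 for Ermap (0.684 to 0.969). For Gata1 it was 0.657 (0.406 to 1.05) and for Epor 0.938 (0.680 to 1.29), both spanning 1. These intervals compare 2 libraries and not conditions. The share of all genes with an interval away from 1 was not computed. The counts of members therefore cannot be called particular to erythroid genes.

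KO 2 and WT 1, the libraries with the most globin, differed from each other as well. The 4 globins were lower in KO 2, with ratios from 0.707 (Hba-a2, interval 0.697 to 0.717) to 0.916 (Hba-a1, 0.892 to 0.940). In contrast 25 members were higher in KO 2, and for 6 the interval held 1, Alas2 among them (0.963, 0.900 to 1.03). The share of all genes with such intervals was not computed for this pair either, so the count of members has no background. Hemgn stood 3.03-fold higher (2.40 to 3.84), Gata1 2.68-fold (1.73 to 4.24) and Klf1 2.39-fold (1.59 to 3.67). Slc4a1 stood 2.28-fold higher (2.15 to 2.41) and Tfrc 1.51-fold (1.41 to 1.62).

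For 2 members, chosen after their values were seen, different transcripts of the gene behaved differently. Of Sptb, transcript Sptb-202 held 361, 343 and 200 reads in WT (1 to 3) against 75, 707 and 55 in KO (1 to 3), the pattern of the gene as a whole. Transcript Sptb-201 held 99, 171 and 65 reads in WT and 144, 98 and 137 in KO, and was not high in KO 2. The coding transcript of Slc25a37 held 755, 360 and 337 reads in WT and 195, 1456 and 197 in KO. A retained-intron transcript of the gene held 469, 418 and 337 reads in WT and 379, 776 and 404 in KO. Its range was narrower, and KO 1 and KO 3 were no lower than WT 3.

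A further 45 erythroid, heme and iron genes outside the 36 gave 0 calls, with 20 fold changes below 0 and 25 above and a median log2 fold change of 0.02. KO 2 was the highest library for 27 of them, against 18.1% of all genes. The 2 with the highest mean TPM, the ferritin chains Ftl1 and Fth1, which most cells make, lay between 779 and 912 CPM and between 452 and 564 CPM. Without overlap between groups were 2 of the 45 genes lower in KO and 2 higher, against 10.3% and 9.05% of all genes.

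Of 10 genes of early blood progenitors, 9 were tested and 0 called. Their summed CPM lay between 274 and 374, most of it from Cd34, which vessels also make. Kit, the stem cell factor receptor, which is also found outside blood, had 38.4, 28.1 and 32.9 CPM in WT and 39.9, 48.4 and 29.5 in KO. Gata2, the GATA factor of progenitors and of endothelium, had 9.33, 8.74 and 7.98 CPM in WT and 8.71, 7.88 and 12.8 in KO. Cd34 and Spi1 were the 2 highest by TPM, at 159 to 222 and 9.83 to 14.6 CPM. In neither Kit nor Gata2 did the libraries follow the order of the globins, but Spi1 and Myb, the latter named after its values were seen, had WT 1 and KO 2 highest and KO 1 and KO 3 lowest. Myb, a factor of dividing blood progenitors, had 11.7, 10.4 and 11.6 CPM in WT and 7.21, 11.6 and 2.95 in KO (adjusted p = 0.573, edgeR), a 3.95-fold range. Cd44 and Itga4 ranged 2.24-fold and 2.21-fold.

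Cell division genes took a different order from the erythroid ones. All 22 on the list had fold changes below 0 and no overlap between groups (10.3% of all genes were lower without overlap). All 22 had an unadjusted p under 0.05 (6.97% of all genes, lower), and 0 were called. Their summed CPM was 1417, 1496 and 1695 in WT (1 to 3) against 1075, 691 and 423 in KO (1 to 3). On this sum KO 2 was below KO 1, whereas it was above KO 1 on the erythroid members. Mcm2 (45.4 CPM in KO 1, 45.8 in KO 2) and Mcm6 (82.7 and 84.4) were exceptions, slightly higher in KO 2. Mki67 had 258, 274 and 332 CPM in WT and 210, 131 and 69.4 in KO. Pcna and Top2a were the 2 highest by TPM, with adjusted p-values of 0.207 and 0.258 in edgeR's test. Many cell types of a newborn divide, and values from whole tissue cannot be assigned to erythroid cells.

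Markers of other cells were followed because blood, spleen and liver could enter the dissected tissue. Granulocyte genes were high and low in the same libraries as most erythroid members. The 11 of them summed to 403, 137 and 78.6 CPM in WT (1 to 3) against 41.2, 402 and 30.9 in KO (1 to 3), KO 1 and KO 3 being the 2 lowest libraries for 10 of 11. S100a9 and S100a8, proteins of mature neutrophils, were highest by TPM. S100a9 had 132, 40.0 and 23.02 CPM in WT and 11.6, 126 and 9.54 in KO. Mpo and Elane, made in early granulocyte precursors and named here after their values were seen, had WT 1 to WT 2 ratios of 0.615 (interval 0.514 to 0.733) and 0.357 (0.202 to 0.603). The ratio of S100a8 was 3.19 (2.92 to 3.47). For Prtn3 (0.838, 0.584 to 1.20) and Ctsg (0.893, 0.555 to 1.43), which early precursors also make, the interval held 1. The part of granulocyte-rich blood or tissue in the erythroid values was not tested.

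Liver genes set WT 1 apart. Alb, albumin, had 219 CPM in WT 1 and between 6.41 and 15.1 in the other 5 libraries. The 14 liver genes summed to 694 CPM in WT 1 and to between 176 and 232 elsewhere, most of it in those libraries from Ttr, which the pancreas also makes. KO 2, where most erythroid members were highest, had 8.44 CPM of Alb. Of 11 tested, 0 were called and 10 had fold changes below 0. The part of liver RNA in the globin level of WT 1 was not tested.

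Spleen stroma and B lineage genes were low throughout, with 7 of 12 tested and 0 called. Their sum was 41.5, 25.3 and 23.2 CPM in WT and 19.7, 34.7 and 13.1 in KO, so WT 1 and KO 2 were highest here too. Madcam1 and Cd79b led by TPM. Madcam1, an adhesion molecule of vessels, went against that order, with 13.1, 11.1 and 11.2 CPM in WT and 8.86, 7.37 and 4.70 in KO, no overlap and an unadjusted p of 0.0105 (adjusted p = 0.258, edgeR). Cd79b, part of the B cell receptor, had 6.06, 3.01 and 2.61 CPM in WT and 2.36, 5.08 and 1.20 in KO. Nkx2-5 had 0 reads in KO 3 and 17 in KO 2. The part of spleen tissue in the erythroid values was not tested.

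The 12 macrophage genes of red pulp and erythroblastic islands, led by C1qa and C1qb, summed to between 462 and 546 CPM, and 0 were called. C1qa and Siglec1 were the 2 of 12 lower in KO without overlap (10.3% of all genes). The sum hid differences within the list, named after the values were seen. Spic, a factor of red pulp macrophages, had 1.90, 1.28 and 0.902 CPM in WT and 1.18, 3.76 and 1.11 in KO, a 4.17-fold range with KO 2 and WT 1 highest. Vcam1 (2.37-fold) was also highest in KO 2 and next in WT 1, while Hmox1 (3.21-fold) was highest in KO 3. Of 10 megakaryocyte and platelet genes, 5 were tested and 0 called, all 5 with fold changes above 0. Pf4, platelet factor 4, had 27.3, 33.6 and 21.2 CPM in WT and 23.6, 35.1 and 42.7 in KO, with KO 3 highest. Itgb3, the other leading gene, lay between 17.9 and 27.4 CPM.

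**Figure D5:**
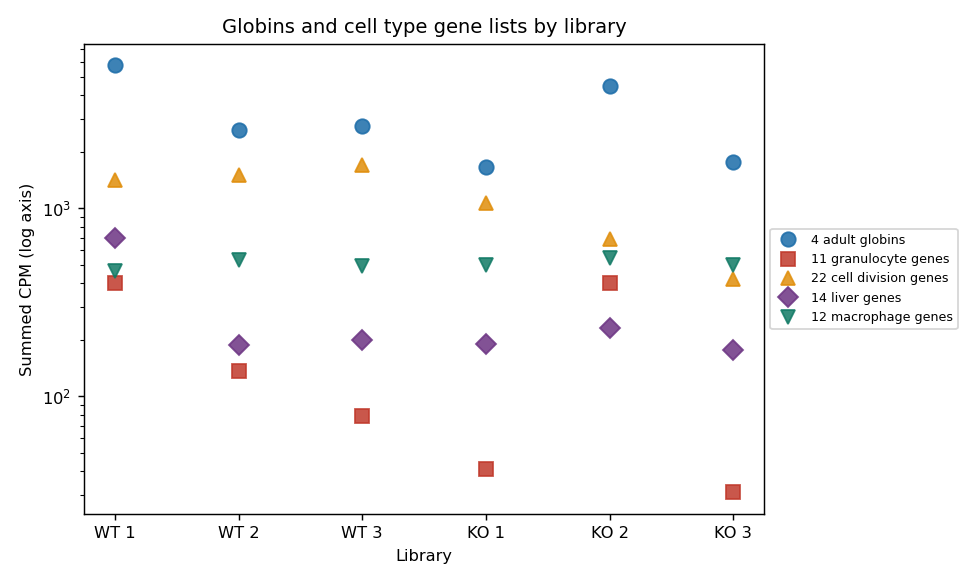
Summed CPM (log axis) of the 4 adult globins and of 4 gene lists in each library. Globin and granulocyte sums are both high in WT 1 and KO 2 (5763 and 4498, 403 and 402), the liver sum is high in WT 1 alone (694), cell division is lowest in KO 3 (423), and the macrophage sum is level.

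The direction of the erythroid genes as a list depended on KO 2 and on the fitting method. With limma-voom on all 6 libraries, 31 of 35 members were below 0 and 0 were called. With edgeR and without KO 2, 34 members could be tested, of which 34 had fold changes below 0 (49.4% of all genes) with a median of -1.15. Of these, 26 had an unadjusted p under 0.05 (7.08% of all genes) and 30 did not overlap (15.8%), and 0 were called (smallest adjusted p 0.233, edgeR). Without both WT 1 and KO 2, 31 of 33 were below 0 (48.9%), 24 had an unadjusted p under 0.05 (6.2%), 29 were lower without overlap (21.9%) and 0 were called, with a median of -0.78. No label gives a reason to leave out either library, and the pair was chosen with earlier results known. With all libraries, KO 1 and KO 3 were already the 2 lowest for 30 of 35 members. The counts without KO 2 therefore restate that order and are no separate evidence of a lower level in KO.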

How the data were processed

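RNA of whole pancreas was sequenced from 6 mice, and groups were taken from the genotype label. The tools were bcl2fastq, Salmon 0.13.1 and DESeq2 1.24.0 and the build was mm10, per the submitters' processing notes. The transcript set behind Salmon was not given in the sources used here. The authors deposited Salmon's estimated counts per transcript, not normalized, beside TPM values and effective lengths, per the file headers. A gene table for the whole series was not used.

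Of 116248 transcripts, 115995 matched GENCODE M21 with equal length, and the rest held 0.0341 to 0.0458% of reads. Estimated counts were summed to genes with pandas 2.3.3 and rounded to whole numbers. TPM values were summed likewise. Genes with at least 10 reads in at least 3 libraries were tested with edgeR 4.0.16 (TMM, quasi-likelihood, Benjamini-Hochberg over 15886 genes, threshold 0.05). The biological coefficient of variation was 18.4%. Standard errors were derived from edgeR's test, as the absolute log2 fold change divided by the square root of the F statistic. P-values test the difference between groups against the spread between donor mice, 3 per group. The code was tested on simulated data. Shares of libraries, ratios to globin and list sums are descriptions with no test. Intervals are exact at 95% and cover counting error only.

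Alternatives were DESeq2 1.42.0 and its size factors, upper-quartile factors, other filters, limma-voom (limma 3.58.1), a transcript length offset and leaving out libraries. The members and gene lists were chosen with earlier results of these data known, including the pair of libraries left out together. By rule, values in every library were given for the globins, Alas2, Slc4a1, Klf1, Gata1, Epor, Tfrc and the 3 members with the smallest p (Alad, Bpgm and Hba-a2). Other members were given by role, at times with library values added after they were seen. Of each other list, the 2 genes with the highest mean TPM and a few genes set by name were given, of which some are not reported here. Promoter sequences are RefSeq's (GRCm38.p6).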

Additional observations from a re-analysis of the deposited data

How the results depend on the processing

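Of 265 values recomputed under 14 settings, 241 kept their direction and side of the threshold, or moved by less than the spread between replicates. The median log2 fold change of members went from -0.02 to -1.15 without KO 2 and still counted among the 241. That count therefore does not measure how steady the sizes were. Under every setting 0 members were called, though DESeq2 gave no p-value for Slc4a1. Genes called numbered 0 in the edgeR fit, 1 with no filter beyond 1 read, 417 with DESeq2, 2 with limma-voom, 1 without WT 1 and KO 2 together, and 0 to 363 when 1 library was left out (363 without KO 1). Members without overlap numbered 1, but 1 to 30 with 1 library left out (30 without KO 2) and 30 without WT 1 and KO 2 together, where the log2 ratio of Klf1 to globin, KO minus WT, moved from -0.34 to -1.46. Directions turned for Slc4a1 (-0.69) and Gata1 (-1.01) with limma-voom. With 1 library left out, log2 fold changes ran from -1.15 to 0.0027 for Hba-a1, -1.06 to 0.036 for Hbb-bs and -1.14 to 0.13 for Alas2, each above 0 without WT 1. They ran from -2.01 to 0.31 for Klf1, above 0 without WT 2, without KO 1 (0.16) and without KO 3 (0.22). Those of Slc4a1 (-2.05 to 1.02), Gata1 (-1.92 to 0.59) and Tfrc (-0.17 to 0.39) fell under 0 without KO 2, and that of Gata1 also without WT 3 (-0.24). Without WT 1 and KO 2 together these 3 were -1.51, -1.94 and -0.059. The cause was not tested, beyond the fewer libraries fitted. The median log2 fold change of members was -0.53 with limma-voom, with 31 below 0. No paired analysis was possible because the replicate numbers follow sample order only and the labels tie no WT mouse to a KO mouse. At 2 to 9 reads in a library, Icam4, Klf1, Gata1, Rhd, Hemgn and Trim58 are limited by depth.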
